A study of Mus musculus with 180 samples.

Results

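*Trp53*, which encodes the transcription factor p53, and 9 genes counted among its targets are described here: *Cdkn1a*, *Mdm2*, *Ccng1*, *Gadd45a*, *Btg2*, *Zmat3*, *Sesn3*, *Phlda3* and *Plk3*. The 10 genes were taken by symbol from a table of 45070 genes. Of the 10, 7 had a mean normalized read count of at least 10 over all samples and were tested, together with 12714 genes in all, and *Sesn3*, *Phlda3* and *Plk3* lay below that limit. The samples were bone marrow-derived macrophages, grown in culture from the marrow of wild type male C57/BL6 mice. The cells were given 1 of 58 clinical kinase inhibitors (CKIs) or the solvent DMSO for 1 h and were then stimulated with LPS, a bacterial membrane component that activates TLR4, at 10 ng/mL for 2 h. PolyA RNA was sequenced in 180 samples, namely 3 per CKI and 6 with DMSO, the latter labelled as 2 sets. All groups, DMSO included, therefore carried LPS and no other stimulus, there was no sample without LPS, and each CKI was used at a concentration of its own. Some CKIs were chosen for another kinase than the one they were developed against, and the classes used here follow the latter, designated target.

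p53 is held at a low level by the ubiquitin ligase MDM2, and damaged DNA, stalled ribosomes and other stresses release it from this control. Free p53 binds response elements near its targets, among them *Mdm2* itself, which closes a negative feedback loop, and *Cdkn1a*, whose product p21 stops the cell cycle by inhibiting cyclin-dependent kinases. Because p53 is set mainly through the stability and modification of the protein, the level of *Trp53* RNA is no measure of its activity. Several of the targets also answer to other factors, for instance *Gadd45a* to stress-activated factors such as ATF4 and *Btg2* to the factors of the immediate-early response, and *Cdkn1a* is part of macrophage activation and differentiation. Inhibitors of the mitotic kinases PLK1 and Aurora can lead to p53 activation in dividing cells over many hours, after failed mitoses.

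The sequences just before the start of 4 target genes are shown because they hold p53-type elements. Each is the 250 bases before a RefSeq start (GRCm38.p6), 5′ to 3′ on the strand of the gene. The capitals mark matches to the p53 decamer (3 purines, C, 2 bases that are A or T, G, 3 pyrimidines, which reads the same on both strands) and, in *Mdm2*, to GTAAACA, a forkhead (FOXO) core motif searched on both strands. The windows are chr17:29090729-29090978 (+) for *Cdkn1a*, chr10:117710759-117711008 (-) for *Mdm2*, chr6:67037408-67037657 (-) for *Gadd45a* and chr11:40755287-40755536 (-) for *Ccng1*.
Cdkn1a: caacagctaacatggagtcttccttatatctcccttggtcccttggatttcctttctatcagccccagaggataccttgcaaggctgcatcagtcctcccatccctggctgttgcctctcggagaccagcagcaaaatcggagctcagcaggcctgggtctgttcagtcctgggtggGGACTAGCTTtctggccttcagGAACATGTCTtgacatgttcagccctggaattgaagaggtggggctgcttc
Mdm2: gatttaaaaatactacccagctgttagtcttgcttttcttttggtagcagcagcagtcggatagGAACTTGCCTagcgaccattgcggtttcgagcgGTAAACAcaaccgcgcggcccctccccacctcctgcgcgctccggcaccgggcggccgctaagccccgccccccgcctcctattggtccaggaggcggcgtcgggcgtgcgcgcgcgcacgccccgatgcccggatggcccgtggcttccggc
Gadd45a: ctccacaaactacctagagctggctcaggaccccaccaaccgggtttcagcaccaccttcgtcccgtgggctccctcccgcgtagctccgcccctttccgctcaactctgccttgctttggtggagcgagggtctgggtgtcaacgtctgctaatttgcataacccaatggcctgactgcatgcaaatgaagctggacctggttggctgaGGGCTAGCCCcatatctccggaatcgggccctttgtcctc
Ccng1: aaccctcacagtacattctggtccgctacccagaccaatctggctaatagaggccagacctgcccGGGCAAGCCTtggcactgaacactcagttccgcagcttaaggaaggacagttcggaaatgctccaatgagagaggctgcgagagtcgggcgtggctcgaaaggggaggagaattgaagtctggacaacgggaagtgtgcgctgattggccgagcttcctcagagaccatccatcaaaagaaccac

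A window was given for 9 of the 10 members, and 5 of these 9 genes held a p53 decamer, against 7.13% of all 32851 windows of the same length. The decamer of *Trp53* itself began 75 bases before its start. *Cdkn1a* held a pair of decamers with a gap of at most 13 bases, beginning 73 and 51 bases before the start, an arrangement found in 0.0639% of all windows. The decamer at 51 bases is directly followed by tgacatgttc, which misses the pattern at its leading t only and is not marked. The pair lay at the more upstream of the 2 RefSeq starts of *Cdkn1a*, and the window of the other start held no decamer. The decamer began 186 bases before the start in *Mdm2*, 185 in *Ccng1* and 40 in *Gadd45a*. GTAAACA, which 3.17% of all windows held, was found in *Mdm2* alone among the members, beginning 153 bases before the start, and it does not overlap the decamer. These are matches of letters and not measured binding.

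The library totals lay between 9477340 and 12273349 normalized reads. The macrophage markers *Adgre1*, *Csf1r*, *Cd68*, *Lyz2*, *Itgam*, *Mertk* and *Cd14* were all present, with a sum between 98768 and 213796 normalized reads in the DMSO samples, and between 84829 and 247333 with the CKIs. Markers of neutrophils and their precursors summed to 192 to 561 with DMSO and to 138 to 1516 with the CKIs, dendritic cell markers to 57 to 88 and 33 to 161, and fibroblast markers to 19 to 147 and 3 to 222. B cell markers summed to at most 20 and 43, endothelial markers to at most 7 and 17, T cell markers to at most 2 and 5 and mast cell and basophil markers to at most 1 and 4. Their part in the members' values was not tested. The share of reads from 37 mitochondrially encoded transcripts lay between 0.525% and 4.47%, and in the DMSO samples between 0.759% and 1.94%. The values are bulk values, so fewer cells of a type and less RNA per cell cannot be told apart.

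With DMSO, the members differed widely in level. Per kilobase of exon, *Cdkn1a* stood at 10810 normalized reads, far above *Mdm2* at 605, *Trp53* at 329 and *Ccng1* at 318. *Btg2* followed at 53.7, *Gadd45a* at 24.0 and *Zmat3* at 10.00, and *Phlda3* at 4.77, *Sesn3* at 2.32 and *Plk3* at 0.21 were close to the limit of detection. The limma F test over the 59 groups found differences among groups for 6 of the 7 tested members, beside 48.6% of all genes tested. The adjusted p was 4.36e-26 for *Mdm2*, 2.06e-20 for *Gadd45a*, 7.92e-07 for *Btg2*, 0.00381 for *Trp53*, 0.0190 for *Zmat3* and 0.0464 for *Ccng1*. For *Cdkn1a* it was 0.111.

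None of the 7 tested members was called against DMSO with any of the 7 mitotic and CDK inhibitors. These are the PLK1 inhibitors GSK461364, NMS1286937 and Volasertib, the Aurora inhibitors MK5108 and SNS314, BMS387032, which is directed at CDK2, CDK7 and CDK9, and the CDC7 inhibitor XL413. Of the 49 tests of a member with limma, 0 had a Benjamini-Hochberg adjusted p under 0.05, 6 had an unadjusted p under 0.05, and the smallest adjusted p was 0.119. Over all genes, 12.2% of the tests in these CKIs had an unadjusted p under 0.05. The share of all genes called was 1.74% with Volasertib, 0.779% with XL413, 0.393% with NMS1286937, 0.22% with SNS314 and 0% with GSK461364, MK5108 and BMS387032, or 0.447% over the 7 CKIs together, so that few genes of any kind were called there.

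*Cdkn1a*, the main effector of p53 in the cell cycle, had normalized read counts of 26147, 22146, 19622, 28283, 16468 and 19348 with DMSO. With the mitotic and CDK inhibitors its values ran from 10507, in a sample of NMS1286937, to 30462, in a sample of Volasertib. Every one of the 7 groups overlapped the DMSO samples. Its log2 fold changes lay between -0.46 with NMS1286937 and 0.13 with Volasertib, and the 95% confidence intervals of the 7 CKIs reached from -0.93 to 0.60. A rise of *Cdkn1a* above 0.60 or a fall beyond -0.93 on the log2 scale was therefore outside the interval of each of these CKIs. Smaller changes in either direction were not excluded for all of them.

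*Mdm2* was measured with less spread, with 1979, 1801, 1721, 2027, 1945 and 1774 normalized reads in the DMSO samples. With Volasertib it had 1510, 1691 and 1089, all 3 below the DMSO samples, at a log2 fold change of -0.41 ± 0.14 (SE) and an adjusted p of 0.119 in limma. With the replicate number as a block in the fit, *Mdm2* was called lower with Volasertib (adjusted p = 0.0333, 5.01% of all genes called). With SNS314 it had 2103, 2569 and 2240, all above the DMSO samples, at 0.30 ± 0.14 and an adjusted p of 0.478. BMS387032, with 2433, 2033 and 2045, also lay above all DMSO samples, at 0.21 ± 0.14 and an adjusted p of 0.371. The 95% intervals of *Mdm2* over the 7 CKIs ran from -0.69 to 0.57. When the mean of the other 57 CKIs was the reference in place of DMSO, 2 of the 49 tests were called, *Mdm2* lower with Volasertib at -0.60 (adjusted p = 0.000214, 2.15% of all genes called) and *Btg2* lower with NMS1286937 at -0.77 (adjusted p = 0.0485, 1.26% of all genes called).

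The remaining members were not called with these CKIs either, although *Btg2* and *Ccng1* each had 1 group wholly beyond the DMSO samples. *Btg2* had 108, 125 and 117 normalized reads with NMS1286937, below the lowest DMSO sample at 135, at a log2 fold change of -0.49 ± 0.26 and a limma adjusted p of 0.736. With BMS387032 *Btg2* had 274, 201 and 274, in part within the DMSO range, at 0.59 ± 0.26 and an adjusted p of 0.213. *Gadd45a* ran from 11 to 53 normalized reads over the 21 samples of these CKIs, against 24 to 36 with DMSO, and its log2 fold changes lay between -0.53 and 0.32. *Ccng1* lay below the DMSO mean with all 7 CKIs, by -0.29 to -0.07 on the log2 scale. This was not particular to them. Over all 58 CKIs its log2 fold change was positive in only 3, with a median of -0.15. With BMS387032 its 3 samples lay below every DMSO sample, at 878, 919 and 913 against a lowest DMSO value of 927. *Zmat3* lay between 48 and 94 normalized reads, against 47 to 100 with DMSO.

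*Trp53* varied most between the replicates of these CKIs. It had 1589, 560 and 1826 normalized reads with MK5108, 775, 382 and 1915 with Volasertib and 1682, 765 and 1056 with GSK461364, against 398 to 1027 with DMSO. In each of the 3 groups the samples spread over both sides of the highest DMSO sample. The mitochondrial share spread as widely in the same groups, from 0.757% to 3.09% with MK5108, from 0.79% to 3.57% with Volasertib and from 1.31% to 4.1% with GSK461364. The widest upper bound of *Trp53* over the 7 CKIs was 1.81 on the log2 scale, so that this gene allows the weakest statement.

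With the 7 mitotic and CDK inhibitors, 5 of the 49 groups of a member had all 3 samples beyond all 6 DMSO samples, beside 3.9% of all genes in the same CKIs. Against the mean of the 51 other CKIs, the mean of the 7 differed for 0 of the 7 members, with 0.291% of all genes called and 1 member at an unadjusted p under 0.05, *Gadd45a* at -0.18 ± 0.09. The PLK1 class (0.928% of all genes called), the Aurora class (0%) and the class of BMS387032 and XL413 (0%) also gave 0 of 7 in limma, with 1, 0 and 1 member at an unadjusted p under 0.05.

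**Figure D1:**
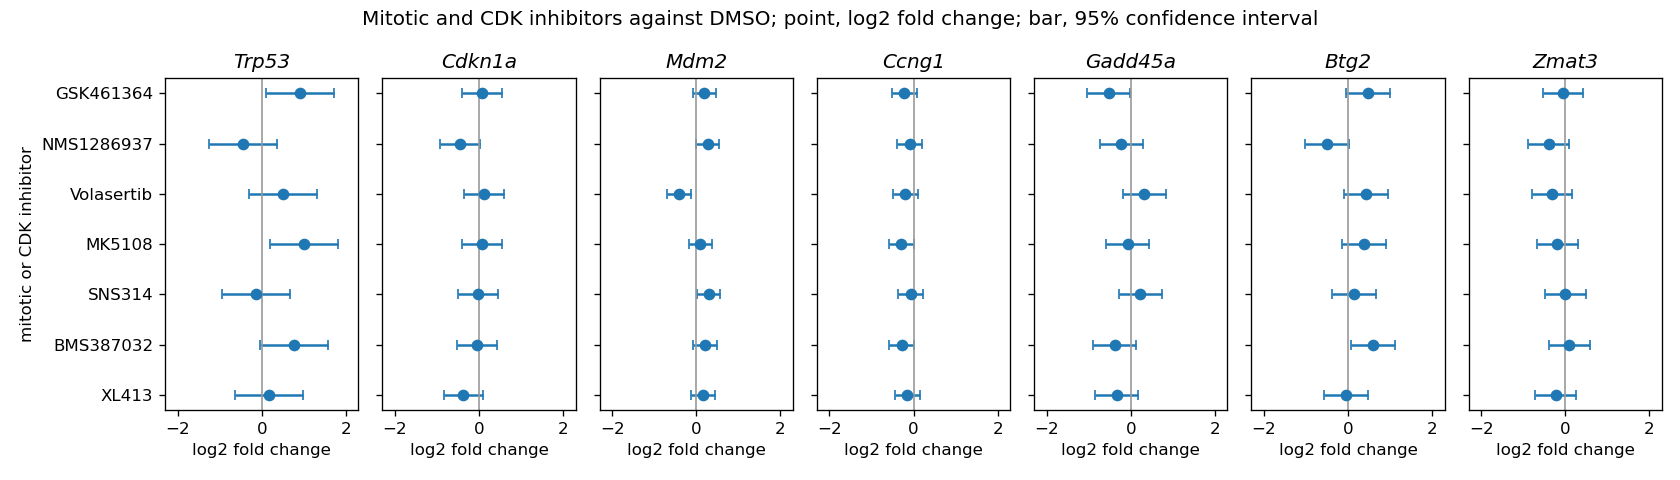
Log2 fold change against DMSO (x axis, with its 95% confidence interval as a bar) of the 7 tested members, one panel a gene, with each of the 7 mitotic and CDK inhibitors (y axis, n = 3 each against 6 DMSO samples). The intervals are widest for Trp53 and narrowest for Mdm2 and Ccng1, and the smallest adjusted p belongs to Mdm2 with Volasertib at -0.41.

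Among the other genes of the p53 network, the differences with these 7 CKIs were few and lay mainly with Volasertib. Of 20 genes that p53 represses through p21 and the DREAM complex, most of them genes of mitosis and DNA replication, 4 fell with Volasertib and 0 rose, when 1.34% of all genes fell and 0.393% rose with this CKI. Over all 58 CKIs the 20 genes were called 29 times higher and 17 times lower, in 3.97% of the tests, beside 4.18% for all genes. With Omipalisib 1 rose and 7 fell (all genes 17.5% and 8.16%), and with BGT226 3 rose and 0 fell (24.1% and 6.32%). With Apitolisib (12.7% and 3.2%) and Pimasertib (16% and 5.68%) 5 rose and 0 fell each. *Aurka* was called higher in 7 CKIs and lower in 1. *Cdc25c* and *Ccnb1* were called higher in 5 each and *Mki67* in 4, and lower in 0. The 4 genes that fell with Volasertib are named here after their values were seen. *Cdc20*, the activator of the anaphase-promoting complex, fell from 1100 ± 189 (SD, n = 6) to 574 ± 136 normalized reads (SD, n = 3), a log2 fold change of -0.94 with a limma adjusted p of 0.00105. *Plk1*, the gene of the kinase that Volasertib inhibits, fell by 0.64 on the log2 scale (adjusted p = 0.0164), the centromeric histone gene *Cenpa* fell by 0.52 (adjusted p = 0.00679) and *Kif23*, a motor of cytokinesis, fell by 0.65 (adjusted p = 0.0409). With Volasertib the 20 genes had a median of -0.31 on the log2 scale, against 0.01 for all genes.

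Of 44 other tested p53 target genes, 1 rose and 1 fell with these 7 CKIs, both with Volasertib. *Hexim1* and *Bcl2l11* are named here after their values were seen. *Hexim1*, an inhibitor of the elongation factor P-TEFb, rose from 109 ± 26 to 204 ± 11.8 normalized reads (limma adjusted p = 0.000286), and *Plk2*, a kinase of the same family as *Plk3*, fell by 0.47 on the log2 scale (adjusted p = 0.0337). None of the 17 tested regulators of p53 was called. Of 18 immediate-early genes only *Fosb*, which encodes a subunit of AP-1, was called, and it rose by 1.77 with NMS1286937 (adjusted p = 0.0337) and by 1.77 with XL413 (adjusted p = 0.0223). *Bcl2l11*, a proapoptotic FOXO target, fell by 0.28 with Volasertib (adjusted p = 0.0493), and *Atf5*, a stress factor of the ATF4 group, fell by 1.24 with SNS314 (adjusted p = 0.0265).

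Over all 58 CKIs, the members were called 28 times in 406 tests with limma, 20 times higher and 8 times lower than with DMSO, in 13 CKIs. This is 6.9% of the tests (4.93% higher and 1.97% lower), beside 4.18% for all genes (2.52% higher and 1.65% lower). All 3 samples lay beyond the 6 DMSO samples in 45 of the 406 groups, or 11.1%, beside 6.54% for all genes. *Btg2* and *Trp53* were called higher in 6 and 5 CKIs, *Gadd45a* higher in 5, *Mdm2* higher in 4 and lower in 1, and *Ccng1* and *Zmat3* lower in 4 and 3. *Cdkn1a* was called in none, with 3 CKIs at an unadjusted p under 0.05. When the samples were scaled once more by the median of ratios, which moved the median of all genes by -0.20 to 0.04 on the log2 scale, the calls were 16 higher and 12 lower in place of 20 and 8, and 24 of the 28 were shared. Of the 28 calls, 12 held when any single library was left out.

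**Figure D2:**
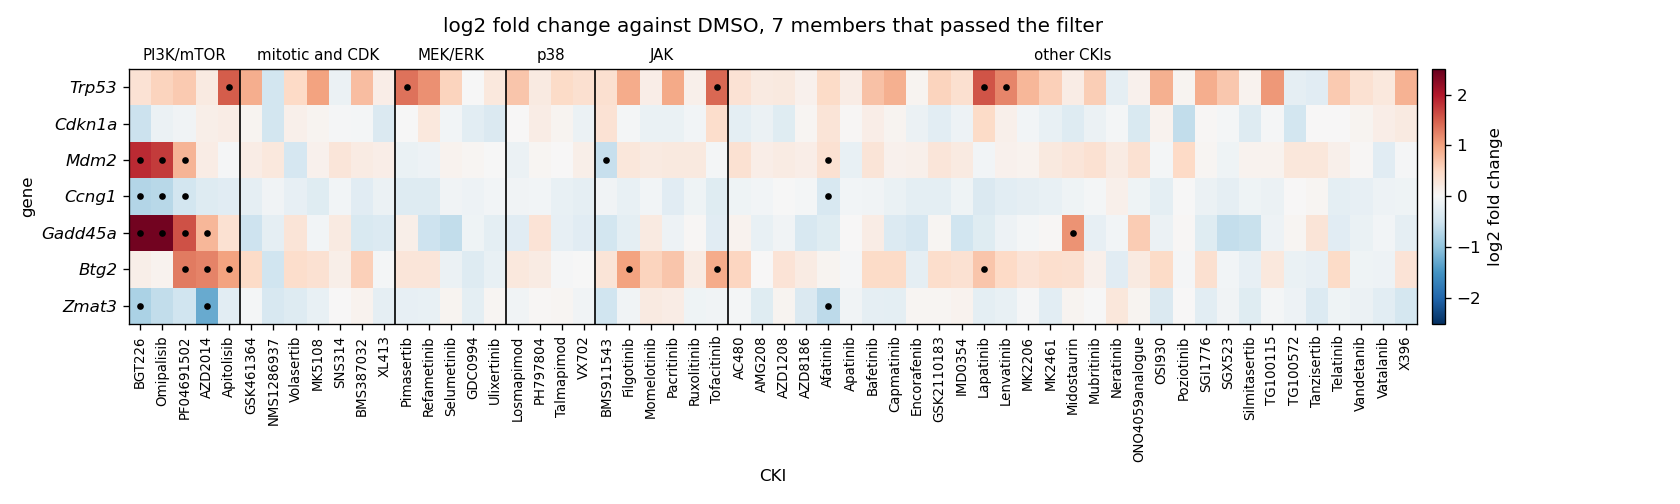
Log2 fold change against DMSO (colour) of the 7 tested members (y axis) with each of the 58 CKIs (x axis), grouped by designated target, with a dot for an adjusted p under 0.05. The dots gather in the PI3K and mTOR inhibitors at the left, and the block of mitotic and CDK inhibitors holds 0 of 49.

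The largest differences of the members, those of *Gadd45a* and *Mdm2*, were found with inhibitors of PI3K and mTOR, kinases of the growth factor and nutrient pathway. The class is made of the 5 CKIs that act on mTOR, of which AZD2014 is directed at mTOR and the other four at PI3K or at both. AZD8186 and TG100115, which are directed at isoforms of PI3K and not at mTOR, were left with the other CKIs. *Mdm2* and *Gadd45a* rose together with BGT226, Omipalisib and PF04691502, *Btg2* rose with PF04691502, AZD2014 and Apitolisib, and *Ccng1* or *Zmat3* fell. Of the 7 tested members, 4 were called with BGT226 (30.4% of all genes called), 3 with Omipalisib (25.7%), 4 with PF04691502 (13.1%), 3 with AZD2014 (19.6%) and 2 with Apitolisib (15.9%). These CKIs thus changed many genes of every kind, and the members' calls stand beside that background. With the PI3K inhibitors AZD8186 (0.228% of all genes called) and TG100115 (0.0236%) 0 of the 7 members were called. *Mdm2* had 1789, 2185 and 2345 normalized reads with AZD8186 and 2058, 2306 and 1635 with TG100115, log2 fold changes of 0.16 and 0.08, and *Gadd45a* had 19, 23 and 24 and 28, 35 and 19, at -0.39 and -0.13.

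*Mdm2*, the ubiquitin ligase that restrains p53, had 6427, 7104 and 6952 normalized reads with BGT226 and 6506, 6644 and 5790 with Omipalisib. With PF04691502 it had 3297, 3457 and 3377. All 9 samples lay above the highest DMSO sample at 2027, and those of BGT226 and Omipalisib also lay above those of every other CKI group. The log2 fold changes were 1.87 ± 0.14 (SE) with BGT226, 1.75 ± 0.14 with Omipalisib and 0.85 ± 0.14 with PF04691502, with limma adjusted p of 4.14e-23, 6.51e-21 and 2.80e-06. AZD2014, with 2138, 2278 and 1986, and Apitolisib, with 2077, 1712 and 1759, overlapped the DMSO samples, with adjusted p of 0.386 and 0.929. The next highest group was Poziotinib, with 2463, 3094 and 2379 normalized reads, which was not called.

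Outside the class, *Mdm2* rose with Afatinib, an EGFR and HER2 inhibitor, to 2091, 2710 and 2541 normalized reads (0.38 ± 0.14, limma adjusted p = 0.0403, 21.9% of all genes called). That call ended without any 1 of 6 libraries, Afatinib replicates 2 and 3 and replicates 2 and 3 of both DMSO sets, with adjusted p between 0.0553 and 0.261. *Mdm2* fell with the JAK2 inhibitor BMS911543 to 1441, 1397 and 979 (-0.58 ± 0.14, adjusted p = 0.00161, 8.55% of all genes called), the lowest of the 59 group means. Without BMS911543 replicate 3 the change was -0.40 with an adjusted p of 0.151.

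*Gadd45a*, which encodes a stress protein that acts in growth arrest and in signalling to p38 and JNK, had 25, 24, 32, 28, 36 and 31 normalized reads with DMSO. It had 166, 190 and 128 with BGT226, 190, 193 and 110 with Omipalisib and 110, 83 and 80 with PF04691502. With AZD2014 it had 51, 56 and 51, and with Midostaurin, a PKC and FLT3 inhibitor outside the class, 82, 63 and 52. All samples of these 5 CKIs lay above the highest DMSO sample. The log2 fold changes were 2.41 ± 0.26 with BGT226 (limma adjusted p = 4.98e-14), 2.41 ± 0.26 with Omipalisib (9.23e-14), 1.60 ± 0.26 with PF04691502 (1.92e-06), 1.13 ± 0.26 with Midostaurin (0.00210, 4.56% of all genes called) and 0.84 ± 0.26 with AZD2014 (0.0128). Apitolisib, with 43, 38 and 34, was not called (adjusted p = 0.299). The calls of AZD2014 and Midostaurin each rested on 1 library, with adjusted p of 0.0608 without AZD2014 replicate 2 and 0.0599 without Midostaurin replicate 1.

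The exons of *Gadd45a* overlap those of *E230016M11Rik* on the opposite strand, and the counting is not stated to use strand, so reads of the pair cannot be told apart. The means of *E230016M11Rik* were 12.5 normalized reads with DMSO, 41 with BGT226, 31 with Omipalisib, 16 with PF04691502 and 17.7 with AZD2014, each lower than that of *Gadd45a*.

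**Figure D3:**
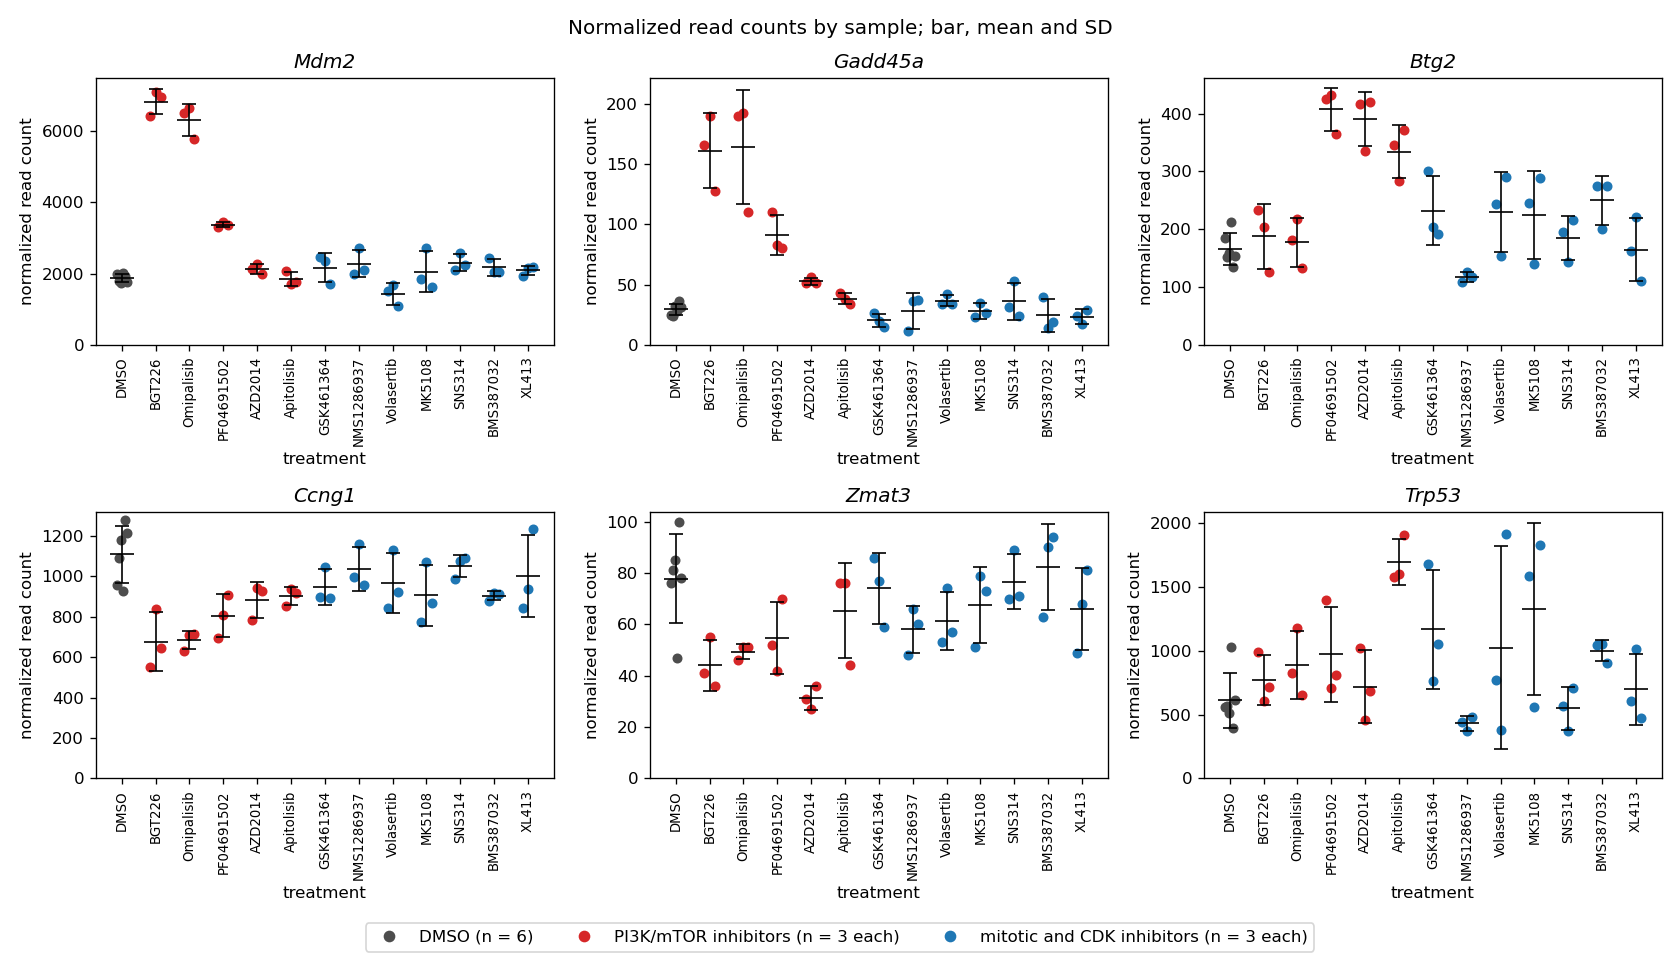
Normalized read count (y axis, linear, one panel a gene) of Mdm2, Gadd45a, Btg2, Ccng1, Zmat3 and Trp53 in each sample (points) with DMSO (n = 6), the 5 PI3K and mTOR inhibitors and the 7 mitotic and CDK inhibitors (n = 3 each), with the mean and SD as bars. Mdm2 and Gadd45a stand highest with BGT226 and Omipalisib, Btg2 with PF04691502 and AZD2014, and the Trp53 samples of MK5108 and Volasertib spread from under 600 to over 1800.

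*Btg2*, which encodes an antiproliferative partner of the CCR4-NOT deadenylase, had 184, 151, 158, 213, 135 and 153 normalized reads with DMSO. It had 425, 432 and 365 with PF04691502, 416, 336 and 420 with AZD2014 and 346, 283 and 372 with Apitolisib. The samples of these 3 CKIs all lay above the DMSO samples, whereas those of BGT226, at 234, 203 and 125, and of Omipalisib, at 181, 218 and 132, overlapped them. The log2 fold changes were 1.31 ± 0.26 with PF04691502 (limma adjusted p = 0.000192), 1.24 ± 0.26 with AZD2014 (0.000126) and 1.01 ± 0.26 with Apitolisib (0.0136), and 0.14 and 0.08 with BGT226 and Omipalisib (0.720 and 0.848). The Apitolisib call ended without Apitolisib replicate 3 (adjusted p = 0.130) or without DMSO set 2 replicate 2 (0.0610).

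The order of the CKIs in *Btg2* was thus another than in *Mdm2*. In contrasts of each of the 10 pairs of the 5 CKIs, which were added after the values were seen and compare compounds at unlike concentrations, *Btg2* was lower with BGT226 than with PF04691502 by -1.16 ± 0.31 (limma adjusted p = 0.00297, 15.2% of all genes called), while *Mdm2* was higher by 1.01 ± 0.16 (3.87e-07). Omipalisib differed from PF04691502 in the same way, by -1.22 ± 0.31 in *Btg2* (0.00401, 5.92% of all genes called) and 0.90 ± 0.16 in *Mdm2* (2.63e-05). Between BGT226 and Omipalisib 0 of the 7 members differed, with *Mdm2* at 0.11 ± 0.16 (0.836) and *Btg2* at 0.06 ± 0.31 (0.964), and 4.77% of all genes called.

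**Figure D4:**
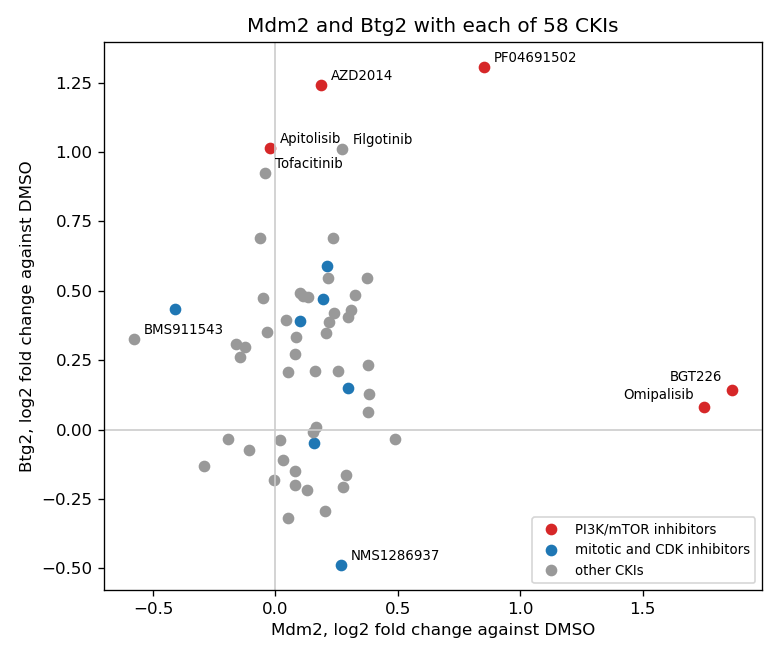
Log2 fold change against DMSO of Mdm2 (x axis) and Btg2 (y axis), one point for each of the 58 CKIs, coloured by class. BGT226 and Omipalisib lie far to the right at 1.87 and 1.75 with Btg2 near 0, AZD2014 and Apitolisib lie high with Mdm2 near 0, and PF04691502 is high in both.

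*Btg2* also rose with the JAK1 inhibitor Filgotinib, to 295, 446 and 276 normalized reads (1.01 ± 0.26, limma adjusted p = 0.00264, 20.7% of all genes called), with the JAK inhibitor Tofacitinib, to 283, 404 and 264 (0.92 ± 0.26, adjusted p = 0.0243, 9.88%), and with the EGFR and HER2 inhibitor Lapatinib, to 275, 275 and 245 (0.69 ± 0.26, adjusted p = 0.0461, 23.3%). All 9 samples lay above the highest DMSO sample at 213. Each of these calls ended when a certain single library was left out. Filgotinib lost its call without its replicate 2 (adjusted p = 0.0630), and Tofacitinib without its replicates 1 or 2 or DMSO set 2 replicate 2 (0.0617 to 0.209). Lapatinib lost its call without any 1 of its own 3 libraries or replicates 2 or 3 of either DMSO set (0.0667 to 0.136).

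*Ccng1*, which encodes cyclin G1, a partner of the phosphatase PP2A that is known to act on MDM2, moved the other way from *Mdm2* in these CKIs. With DMSO it had 957, 1088, 1180, 927, 1279 and 1216 normalized reads. It fell to 549, 837 and 643 with BGT226, to 632, 709 and 714 with Omipalisib and to 696, 808 and 909 with PF04691502, all below the lowest DMSO sample. The log2 fold changes were -0.72 ± 0.15, -0.68 ± 0.15 and -0.46 ± 0.15, with limma adjusted p of 5.00e-05, 0.000198 and 0.0298. With Afatinib it had 758, 724 and 1065, of which 1 lay within the DMSO range (-0.40 ± 0.15, adjusted p = 0.0460).

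The calls of *Ccng1* with BGT226 and Omipalisib held without any single library. That of PF04691502 ended without its replicate 1 or 2 or without replicate 2 or 3 of DMSO set 2 (adjusted p between 0.0555 and 0.264). That of Afatinib ended without its replicate 1 or 2 or without replicate 2 or 3 of either DMSO set (0.0593 to 0.315).

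*Zmat3*, which encodes an RNA-binding protein that controls splicing and RNA stability, had 76, 81, 85, 47, 100 and 78 normalized reads with DMSO. It fell with AZD2014 to 31, 27 and 36, below every DMSO sample, at -1.26 ± 0.24 with a limma adjusted p of 2.24e-05. With BGT226 it had 41, 55 and 36 (-0.80 ± 0.24, adjusted p = 0.00718) and with Afatinib 40, 48 and 57 (-0.66 ± 0.24, adjusted p = 0.0404), and both groups overlapped the DMSO sample at 47. Omipalisib, with 46, 51 and 51, just missed the threshold (adjusted p = 0.0507). The BGT226 call ended without its replicate 3 (adjusted p = 0.0655) and that of Afatinib without its replicate 1 or 2 or replicate 2 or 3 of either DMSO set (0.0553 to 0.225). AZD2014 was lower than Apitolisib in *Zmat3* in the pair contrasts, where Apitolisib minus AZD2014 was 1.00 ± 0.28 (adjusted p = 0.0140, 7.29% of all genes called).

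Against the mean of the 53 other CKIs, which leaves the DMSO samples out, the mean of the 5 PI3K and mTOR inhibitors differed in 5 of the 7 members, beside 41.5% of all genes. *Gadd45a* was higher by 1.65 ± 0.10 (limma adjusted p = 5.26e-31), *Mdm2* by 0.82 ± 0.05 (8.38e-28) and *Btg2* by 0.54 ± 0.10 (4.83e-06), and *Ccng1* and *Zmat3* were lower at -0.34 ± 0.06 (3.18e-07) and -0.56 ± 0.09 (2.40e-07). *Trp53* and *Cdkn1a* did not pass, at 0.17 ± 0.16 and -0.03 ± 0.09. All 5 calls held when replicate 1, 2 or 3 of every condition was left out. The SE and p of a class contrast, here and in the other classes, rest on the spread between replicates. They do not measure the spread between the CKIs of a class, which was wide. Against DMSO, *Mdm2* stood at 1.87 with BGT226, 0.19 with AZD2014 and -0.02 with Apitolisib. With AZD8186 and TG100115 counted in the class, a choice made after the values were seen, the same 5 members were called against the other 51 CKIs (33.4% of all genes called), with *Gadd45a* at 1.14 ± 0.09, *Mdm2* at 0.59 ± 0.05, *Btg2* at 0.39 ± 0.09, *Ccng1* at -0.23 ± 0.05 and *Zmat3* at -0.43 ± 0.08.

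In the other classes fewer members were called. With the 5 MEK and ERK inhibitors *Mdm2* and *Gadd45a* were lower than with the other CKIs, by -0.23 ± 0.05 (limma adjusted p = 0.00242) and -0.32 ± 0.10 (0.0401), beside 5.31% of all genes. Both calls ended when replicate 1 or replicate 2 of every condition was left out (adjusted p between 0.0878 and 0.684), and that of *Gadd45a* also without replicate 3 (0.0679). With the 6 JAK inhibitors *Btg2* was higher by 0.39 ± 0.09 (0.00250), beside 5.72% of all genes, and without replicate 2 of every condition the adjusted p was 0.235. With the 4 p38 inhibitors 0 of the 7 members were called, beside 1.47% of all genes, and 1 had an unadjusted p under 0.05.

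*Trp53* had 559, 567, 516, 1027, 398 and 615 normalized reads with DMSO. Its level lay above the DMSO mean in 52 of the 58 CKIs, with a median log2 fold change of 0.48. It rose with Lapatinib to 1592, 1857 and 1799, with Apitolisib to 1575, 1605 and 1905, with Tofacitinib to 1731, 2031 and 1127, with the MEK inhibitor Pimasertib to 1365, 1641 and 1532 and with the VEGFR inhibitor Lenvatinib to 1521, 944 and 1789. All samples but 1 of Lenvatinib lay above the highest DMSO sample. The log2 fold changes were 1.57, 1.52, 1.43, 1.36 and 1.22, each ± 0.41, with limma adjusted p of 0.00806, 0.0154, 0.0243, 0.0139 and 0.0404. Pimasertib had 21.7% and Lenvatinib 12.2% of all genes called. When the mean of the other 57 CKIs was the reference, *Trp53* was called in 0 CKIs.

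The Lapatinib call of *Trp53* held without any single library. The Apitolisib call ended without its replicate 3 or DMSO set 2 replicate 2 (adjusted p of 0.131 and 0.0688), the Pimasertib call without its replicate 2 or 3 (0.0569 and 0.0668) and the Tofacitinib call without its replicate 1 or 2 or DMSO set 2 replicate 2 (0.0749 to 0.199). The Lenvatinib call ended without any 1 of its own 3 libraries or replicates 2 or 3 of either DMSO set (0.0520 to 0.218).

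The level of *Trp53* moved with the mitochondrial share. Over the 180 samples Pearson's r between its log2 level and that share was 0.825, and it was 0.595 for *Btg2*, 0.437 for *Cdkn1a*, -0.497 for *Ccng1*, -0.17 for *Zmat3*, -0.08 for *Mdm2* and -0.03 for *Gadd45a*. These points share CKI groups and library scaling, and the values are descriptions. The mean share was 3.66% with Pimasertib, 2.93% with Apitolisib, 2.77% with Lenvatinib, 2.76% with Lapatinib and 2.64% with Tofacitinib, against a highest DMSO value of 1.94%. With the share as a covariate in the limma fit, added after the values were seen, *Trp53* was called in 0 CKIs in place of 5 and *Btg2* in 3 in place of 6, with AZD2014, PF04691502 and Filgotinib kept. *Mdm2* kept 4 higher and 1 lower, *Gadd45a* 5, *Zmat3* 3 and *Ccng1* 3 of 4 calls, and *Cdkn1a* had 1 lower call.

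**Figure D5:**
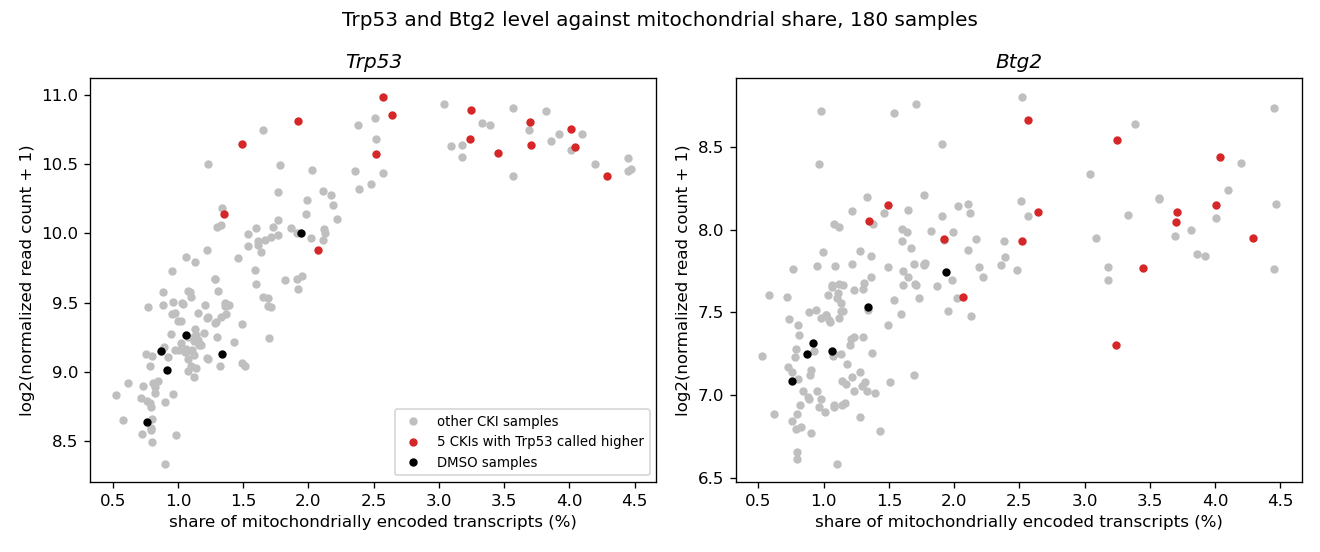
Log2(normalized read count + 1) of Trp53 (left) and Btg2 (right) against the share of mitochondrially encoded transcripts in percent (x axis), one point for each of 180 samples. Trp53 climbs with the share (r = 0.825), the samples of the 5 CKIs with a Trp53 call lie mostly at shares above the DMSO samples, and Btg2 follows less closely (r = 0.595).

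*Cdkn1a*, the most abundant member, was the only tested member that was not called with any CKI. Its group means ran from 14740 normalized reads with Poziotinib (20423, 10040 and 13768) to 30210 with Lapatinib (28055, 34285 and 28279), and the DMSO mean of 22000 ± 4472 (SD, n = 6) ranked 27 of 59. The Lapatinib samples reached above the highest DMSO sample at 28283 in 1 of 3, and the Tofacitinib samples, at 28146, 30582 and 28976, in 2 of 3. Its log2 fold changes lay between -0.61 and 0.48. With BGT226, where *Mdm2* and *Gadd45a* were highest or nearly so, *Cdkn1a* had 19131, 10857 and 16020 normalized reads, a log2 fold change of -0.53 ± 0.24 with a limma adjusted p of 0.0778. The lower level was called with the further scaling (-0.74, adjusted p = 0.0119), with the mitochondrial share in the fit (-0.61, adjusted p = 0.0159) and with the other 57 CKIs as reference (-0.49, adjusted p = 0.0429). The rise of *Mdm2* was therefore not joined by a called rise of *Cdkn1a* in any CKI.

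The 3 members below the filter are given by their values. *Sesn3*, a sestrin that restrains mTORC1, had 3 to 8 normalized reads with DMSO and 0 to 16 over all samples, with the highest group mean with Losmapimod (9, 10 and 10). *Phlda3*, an inhibitor of AKT, had 1 to 11 with DMSO and 0 to 21 over all samples, with the highest mean with SNS314, an Aurora inhibitor (11, 12 and 15). *Plk3*, a stress-responsive polo-like kinase, was at 0 in 80 of the 180 samples and highest with Afatinib (2, 6 and 6), and its exons overlap *Tctex1d4* on the opposite strand. In a fit of 30850 genes without the filter, *Plk3* was called with Afatinib (limma adjusted p = 0.00859), and *Sesn3* and *Phlda3* in 0 CKIs, with 4 and 2 CKIs at an unadjusted p under 0.05. The F test over the 59 groups in that fit gave adjusted p of 0.0258 for *Sesn3*, 0.546 for *Phlda3* and 0.20 for *Plk3*. At such levels a change has to be several-fold to be detectable.

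Across the 59 group means, on the log2 scale, *Mdm2* was most like *Gadd45a* among the members (Pearson's r = 0.77) and opposite to *Ccng1* (-0.54). *Trp53* went with *Btg2* (0.62) and *Cdkn1a* (0.55), and *Ccng1* with *Zmat3* (0.51), while *Cdkn1a* and *Mdm2* were opposed (-0.47). The genes most like each member were *Slc38a2* (0.889), an amino acid transporter, and *Pmaip1* (0.883), the proapoptotic p53 target Noxa, for *Mdm2*, *Atg14* (0.846) and *Natd1* (0.845) for *Gadd45a*, and *Sfr1* (0.807) and *Gm13160* (0.792) for *Btg2*. For *Trp53* they were *Mdh1* (0.971) and *Arhgdib* (0.969), for *Cdkn1a* *Tmem176b* (0.779) and *Trex1* (0.771), for *Ccng1* *Cs* (0.889) and *Rpn1* (0.875), and for *Zmat3* the pseudogenes *Tdg-ps* (0.817) and *Tdg-ps2* (0.815), whose reads may be shared with near-identical copies. The group means share the scaling of the libraries and their mitochondrial shares.

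Other p53 target genes were called in both directions. Of 48 listed, 44 were tested, with 64 calls higher and 50 lower over the 58 CKIs, or 4.47% of the tests beside 4.18% for all genes. With BGT226 14 rose and 4 fell, when 24.1% of all genes rose and 6.32% fell, and the median of the 44 was 0.33 on the log2 scale, beside 0.21 for all genes. With Omipalisib 13 rose and 7 fell (all genes 17.5% and 8.16%), with a median of 0.22 beside 0.12. With PF04691502 5 rose and 4 fell (all genes 8.86% and 4.22%), with a median of 0.02 beside 0.10. With AZD2014 4 rose and 6 fell (all genes 6.06% and 13.5%), with a median of -0.09 beside -0.02, and with Apitolisib 4 rose and 2 fell (all genes 12.7% and 3.2%), with a median of 0.20 beside 0.11. The list was chosen with results of these data known and holds genes that other pathways control too.

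*Plk2* rose from 1110 ± 146 (SD, n = 6) with DMSO to 4250 ± 210 with BGT226 and 2760 ± 118 with Omipalisib (limma adjusted p of 5.65e-27 and 7.11e-16), and it fell in 7 other CKIs. *Pmaip1* rose from 92.7 ± 23.1 to 558 ± 149 and 483 ± 99.3 with the same CKIs (9.04e-14 and 5.60e-12), and also with PF04691502 (217 ± 21.2) and AZD2014 (161 ± 17). *Triap1*, which encodes a small survival factor, rose in 10 CKIs, by 0.86 with Omipalisib and 0.81 with BGT226. *Psrc1*, a spindle protein, rose in 5 CKIs, among them BGT226 and Omipalisib at 1.29 and 1.34. Its level was low, with 13.7 ± 8.26 normalized reads with DMSO, 35 ± 22.1 with BGT226 and 33 ± 10.5 with Omipalisib. *Aen*, an apoptosis-enhancing nuclease, fell in 6 CKIs, by 1.27 with PF04691502 (176 ± 11.5 against 426 ± 38.2 normalized reads) and by 0.97 with BGT226 and AZD2014. With BGT226 the genes named here thus moved in both directions, and the part of p53 in this was not tested.

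Among 17 tested regulators of p53, 46 calls were higher and 8 lower, or 5.48% of the tests, beside 4.18% for all genes (2.52% higher and 1.65% lower). The total share was near that background. With BGT226 8 rose and 1 fell, when 24.1% of all genes rose and 6.32% fell. With Lapatinib 4 rose and 0 fell (all genes 18.1% and 5.26%), and with AZD2014 2 rose and 2 fell (6.06% and 13.5%). The ribosomal protein genes *Rpl11* and *Rpl5*, whose products bind MDM2 when ribosome assembly fails, were called higher in 10 and 9 CKIs, by 1.10 and 0.60 with Lapatinib (adjusted p of 0.0102 and 0.00580). The kinase gene *Atm* was called higher in 5 CKIs, by 1.33 with Omipalisib (5.22e-07). *Cop1*, a ubiquitin ligase for p53, was also called higher in 5.

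Genes of 3 pathways that share members with the p53 response were counted in the same way. Of 14 tested FOXO target genes, which rise when AKT signalling is low, 12 rose and 0 fell with BGT226 (24.1% of all genes higher), 13 and 1 with Omipalisib (17.5%), 10 and 0 with PF04691502 (8.86%), 8 and 0 with AZD2014 (6.06%) and 4 and 0 with Apitolisib (12.7%). *Irs2* rose from 37.3 to 258 normalized reads with BGT226 (limma adjusted p = 2.35e-09), *Txnip* from 545 to 1800 (3.75e-11), *Bcl6* from 184 to 382 (0.00377) and *Cited2* from 214 to 308 (0.00628). Of 18 tested immediate-early genes, 9 rose with BGT226, 7 with Omipalisib and 7 with PF04691502 and 0 fell, beside the same shares of all genes. With AZD2014 4 rose and 4 fell, and with Apitolisib 2 rose and 1 fell. *Fosb* rose by 2.64, 2.94 and 3.35 on the log2 scale with BGT226, Omipalisib and PF04691502, and was called higher in 13 CKIs and lower in 0. *Atf3* rose by 2.03 with BGT226 but stood at -0.47 with Apitolisib (limma adjusted p = 0.0166), and was called higher in 2 CKIs and lower in 9. *Ier5* was called higher in 9 CKIs and lower in 0. *Dusp1* was called lower in 7 CKIs and higher in 0, and stood at -4.30 with AZD2014 (limma adjusted p = 3.50e-16).

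The 12 genes of the ATF4 group, which answer to amino acid shortage and stress of the endoplasmic reticulum, were called most often with Afatinib, where 8 rose and 1 fell, when 9.06% of all genes rose and 12.8% fell, and their median was 1.85 on the log2 scale beside 0.03 for all genes. With BGT226 2 rose and 1 fell, when 24.1% of all genes rose, and with Omipalisib 3 rose and 0 fell (17.5% of all genes rose). With PF04691502 1 rose and 3 fell, with AZD2014 0 rose and 5 fell, and with Apitolisib 1 rose and 0 fell. *Atf4* rose from 1590 normalized reads with DMSO to 10100 with BGT226 (limma adjusted p = 4.08e-53), 6050 with Omipalisib (8.16e-39) and 5580 with Afatinib (8.29e-36). It was called higher in 8 CKIs and lower in 1, AZD2014. *Ddit3*, a stress factor, rose from 37 to 872 with BGT226 (2.28e-15), 283 with Omipalisib (1.21e-07) and 131 with Afatinib (0.00129). It was called higher in 7 CKIs and lower in 0. *Trib3*, a pseudokinase that restrains ATF4, rose from 59.2 to 813 with Afatinib (3.69e-17), and *Atf5* was called lower in 6 CKIs and higher in 0.

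Over 15 tested paralogs of the members, 30 calls were higher and 23 lower, or 6.09% of the tests, beside 4.18% for all genes (2.52% higher and 1.65% lower). *Gadd45b*, the relative of *Gadd45a* that is induced by NF-kB, rose from 3290 ± 529 (SD, n = 6) to 24600 ± 4580 normalized reads with BGT226 and to 13800 ± 3050 with Omipalisib (limma adjusted p of 6.78e-29 and 2.20e-18), and was called higher in 6 CKIs. *Ccng2*, the relative of *Ccng1* and a FOXO target, rose with BGT226, Omipalisib, PF04691502 and AZD2014, by 1.11, 1.51, 1.15 and 0.52, in the first 3 of which *Ccng1* fell. *Ccng2* was called higher in these 4 CKIs and lower in 3, among them Filgotinib at -1.02 and Midostaurin at -1.10. *Phlda1*, of the family of *Phlda3*, was called lower in 5 CKIs and higher in 1. Its log2 fold changes were -2.73 with AZD2014 (limma adjusted p = 1.02e-12), -2.05 with Pimasertib (2.38e-07), -2.02 with Afatinib (1.78e-07), -1.42 with BGT226 (6.31e-05) and -1.27 with BMS911543 (0.00101), and it rose from 220 to 974 normalized reads with Midostaurin (7.45e-08). It was not called with PF04691502 or Omipalisib, at -0.79 and -0.43.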

How the data were processed

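PolyA RNA of 180 samples was sequenced from SMART-seq2 libraries. According to the methods, the authors mapped the reads to mm10 with TopHat2 2.1.1, removed blacklisted regions with bedtools 2.29.2, counted reads on the exons of curated RefSeq genes, scaled the samples on genes that vary little between them and tested with DESeq2. The deposited values are normalized read counts rounded to whole numbers, and were treated as a score, not as raw counts, so no count test was run.

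Groups came from the sample titles. Both DMSO sets, which the labels do not tie to CKIs, served as 1 reference. Values were taken as log2(value + 1), genes with a mean of at least 10 were kept (12714 of 45070), and limma 3.58.1 (R 4.3.3) was fitted to all 59 groups with a variance trend. P-values were adjusted by Benjamini and Hochberg over all genes in each comparison and called at 0.05. They rest on the spread between replicates, pooled for each gene over all 59 groups and moderated across genes. In a class contrast they do not measure the spread between the CKIs of the class. The SE of a gene was therefore the same for every CKI, for instance 0.41 for *Trp53*, whatever the spread of its own 3 samples. The methods call the replicates independent biological replicates. No columns were found to be identical between samples. Library totals were 9477340 to 12273349, and values near 10 carry a large counting error. A fold change on the log2(value + 1) scale understates changes of low genes. The fit was tested on simulated data.

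The members and lists were chosen with earlier results of these data known. Named are the 10 members, of each list up to 4 genes called in the most CKIs, for each tested member the 2 genes most like it over the 59 groups, and the CKIs with a called member besides the 7 mitotic and CDK inhibitors. Not every gene of this rule is given, and the 6 list genes outside it that the text names are said there to be named after their values were seen. *Pmaip1* is named as a neighbour of *Mdm2*. Classes follow the designated targets, and the PI3K and mTOR class holds the CKIs that act on mTOR. Alternatives were other pseudocounts (0.5 and 10), filters (none and 50), scaling, references, a log2 threshold of 1, no variance trend, only the compared groups, the replicate number as a block and left-out libraries. The mitochondrial covariate, the pair contrasts and the wider PI3K class were added after the values were seen. Promoter windows are from RefSeq (GRCm38.p6) and coordinates of genes from the table.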

Additional observations from a re-analysis of the deposited data

Results flagged for a closer look

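*Trp53* with DMSO was marked because 1 of the 6 samples stood apart. Replicate 1 of DMSO set 2 had 1027 normalized reads and the nearest other sample 615, a gap of 0.655 of the whole range, above Dixon's 95% critical value for 6 samples. All 10 members were examined in this way, and chance marks about 1 in 20 such groups. The same sample had the highest mitochondrial share of the DMSO samples, at 1.94%. The part of that share in the value was not tested.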

How the results depend on the processing

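The 28 member calls, of which 20 were higher and 8 lower, became 18 (13 and 5) with DMSO set 1 alone and 15 (11 and 4) with DMSO set 2 alone, and the 441 calls of list genes became 277 and 260, each with fewer reference samples. A log2 fold change of at least 1 left 16 calls, 1 of them lower, 1 of the 8 class calls and 197 list calls. Without the filter 5 calls were lower. With only the compared groups in a fit 5 calls were lower, and there were 216 list calls. With the other 57 CKIs as reference 11 calls were higher, and 2 of the 49 tests of mitotic and CDK inhibitors were called. With the mitochondrial share as covariate, chosen after seeing the data, 12 were higher, and 19 of 20 calls were shared with the 28. The causes of these changes were not tested.

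When libraries were left out, the member calls ranged from 11 to 33, the higher calls from 8 to 23, the lower from 3 to 10, the members that differed among groups from 3 to 6, the class calls from 5 to 7 and the list calls from 184 to 571, while calls in mitotic and CDK inhibitors stayed at 0. No member call or class call changed direction under these settings. The remaining settings (pseudocounts of 0.5 and 10, a filter of 50, further scaling, no variance trend and, for the class calls, AZD8186 and TG100115 in the PI3K and mTOR class) kept these counts within 1.5 times.

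Same-numbered samples of different groups deviated together on average (mean r = 0.226). The mean for different numbers was -0.113. That value follows largely from taking deviations from the mean of each set of 3 samples, and is no separate evidence. In 3810 of 5310 same-numbered pairs only was r over 0.1, so the numbers were not taken to pair the samples. The labels do not state whether equal numbers mark shared replicates. If they do, the main tests leave that pairing out. Of the 180 samples 155 correlated best with their own number, which is a hint from the data and not from the design. With the replicate number as a block, 39 member calls were made, which included all 28, with 17 lower, 1 in the mitotic and CDK inhibitors (*Mdm2* lower with Volasertib, adjusted p = 0.0333), 1 of *Cdkn1a* (lower with BGT226, adjusted p = 0.0292) and 715 list calls.

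Counting error limits *Sesn3*, *Phlda3* and *Plk3*, which lay below a mean of 10 normalized reads, and each CKI group rests on 3 samples.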
